A study of Saccharomyces cerevisiae with 2 samples.

Results

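The genes described here are the 100 of 4579 listed budding yeast genes whose coding sequences are richest in asparagine and glutamine. The rule that picks them reads codons alone: for each gene the occurrences of the asparagine codons AAT and AAC and the glutamine codons CAA and CAG were summed and divided by the occurrences of all 64 codons, and the 100 highest shares were taken. No footprint or read value enters the rule. The values come from 2 bulk libraries of 1 Saccharomyces cerevisiae strain, yJC2229, with 1 library of ribosome footprints and 1 of total RNA. Cells grew at 24 °C in YPD medium with 2% glucose to mid-log phase without pretreatment, and were lysed with cycloheximide, which arrests elongating ribosomes. The full genotype of the strain is not given in the sources used here.

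Asparagine and glutamine carry uncharged side chains that end in an amide. In yeast, long stretches rich in these residues are known from prion proteins, whose glutamine- and asparagine-rich domains can convert into self-propagating aggregates, and from many transcription regulators, RNA-binding proteins, endocytic adaptors and nuclear pore proteins, where such stretches are mostly disordered. A ribosome footprint is the mRNA fragment that a ribosome protects from nuclease, so the footprints of a gene count the ribosomes that were on its mRNA.

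Among the 100 genes, asparagine and glutamine codons made up between 18.1% and 34.1% of a gene's codons, with a median of 19.8%, against a median of 9.44% in the other 4479 genes. CPP1 (YBR016W, chromosome II, 270247 to 270633, build sacCer3), which encodes a small tail-anchored membrane protein, ranked first with 11 asparagine and 33 glutamine codons among 129, stop codon included. The MADS-box transcription factor MCM1 (YMR043W, chromosome XIII, 353871 to 354731) followed at 32.4%, then the prion protein RNQ1 (YCL028W, chromosome III, 70150 to 71367) at 31.3%, the DNA-binding protein IXR1 at 30.1%, the RNA-processing ring protein LSM4 at 29.8%, the zinc finger repressor MOT3 at 29.7%, the RNA polymerase II degradation factor DEF1 at 29.4% and the endocytic epsin ENT2 at 29.3%.

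The balance of the 2 residues varied widely among the 100 genes. In 60 of the 100 genes asparagine outnumbered glutamine, and in 40 glutamine outnumbered asparagine. Asparagine reached 23.4% in LSM4 and 23.2% in the stress-induced protein DDR48, where glutamine stood at 6.38% and 1.39%. Glutamine reached 27.6% in CPP2, 26.8% in MCM1, 25.6% in CPP1 and 25.0% in YDL012C, where asparagine stood at 1.32%, 5.57%, 8.53% and 2.78%. CPP1, CPP2 and YDL012C encode related small tail-anchored membrane proteins.

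**Figure D1:**
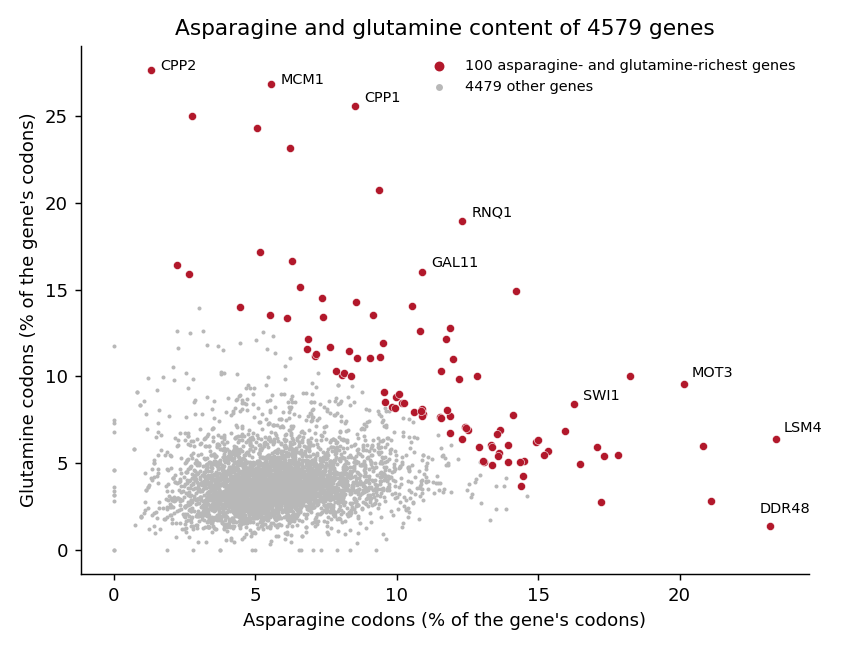
Each point is a gene, placed by the share of its codons that encode asparagine (x axis, %) and glutamine (y axis, %). The 100 richest genes (red) form a band above the other 4479 (grey) that runs from CPP2, with 1.32% asparagine and 27.6% glutamine, to DDR48, with 23.2% asparagine and 1.39% glutamine.

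A high share of asparagine and glutamine leaves less room for other residues, so these were compared as shares of the remaining codons. Of the 18 other residues, 8 had a higher share in the 100 genes and 10 a lower one. Serine made up 13.5% of the remaining codons in the 100 genes and 9.82% in the other genes, proline 7.29% and 4.80%, threonine 7.70% and 6.37%, and methionine 2.88% and 2.28%. Among the scarcer residues, glutamate made up 5.79% in the 100 genes and 7.50% in the other genes, lysine 6.76% and 8.31%, valine 4.65% and 6.24%, leucine 9.33% and 10.6%, and tryptophan 0.606% and 1.13%. Choice among synonymous codons was close in the 2 sets of genes: AAC made up 41.9% of asparagine codons in the 100 genes and 40.6% in the others, and CAG 34.2% and 30.8% of glutamine codons.

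The last genes inside the rank of 100 were the septin-associated protein gene EPO1, the heat shock transcription factor gene HSF1 (both 18.1%) and TIM10, a mitochondrial intermembrane space chaperone, also at 18.1%. DAT1, ATG38 and the prion protein gene URE2 fell just outside at 18.1%, 18.1% and 18.0%, so the rank of 100 marks no break in composition. SUP35 and NEW1, which also carry prion domains, fell outside it. The share is taken over the whole reading frame.

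The authors' abundance column, which is headed FPKM but behaves as library-scaled counts (CPM) that were not divided by length, corresponds to between 116 and 19331 reads in these genes, with a median of 1333, against 1460 in the other genes. Which library it was made from is not stated, and this bears on every ratio below: a ratio is a translational efficiency in the usual sense only if the reads are those of total RNA. Per codon, the 100 genes had a median of 2.94 reads (quartiles 1.72 and 4.36), against 3.37 (1.84 and 7.81) in the others. In bulk libraries, fewer cells with an mRNA and fewer copies of it per cell cannot be told apart. Together the 100 genes took 1.18% of the 3756929 footprints and 0.947% of the 21353772 reads in listed genes.

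Footprints ranged from 25 to 12686 per gene, with a median of 149.5, against 157 in the other genes. The deposited table lists no gene with under 25 footprints, so 25 is a floor for every gene. A gene with few reads is therefore listed only where its footprints per read are not low, among members and other genes alike. Per codon, the median was 0.354 footprints in the 100 genes (quartiles 0.169 and 0.902) and 0.399 in the others (0.147 and 1.30). The order turned with the 50 highest shares as members (0.51 against 0.397). Of the 100 genes, 27 had under 100 footprints and 0 had under 100 reads.

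The gene with the most footprints was RPL39, a 52-codon frame for a large ribosomal subunit protein, with 12686 footprints and 19331 reads, or 244 footprints per codon. It holds 6 asparagine and 4 glutamine codons, a share of 19.2%. YNL208W followed with 4110 footprints and 8760 reads (20.6 footprints per codon), then the poly(A) mRNA-binding protein gene PUB1 with 2683 footprints and 12006 reads (5.91 per codon). MIX17, a twin CX9C protein of the mitochondrial intermembrane space, had 1973 footprints and 4391 reads (12.6 per codon). RNQ1 had 1147 footprints and 3763 reads (2.83 per codon), and the mRNA cleavage factor HRP1 1040 and 5709 (1.94 per codon). The fewest footprints were found in VPR1 (25), FAR7 (28) and MSS11 (44). Per codon, the lowest were the transcription regulators DAL81 (0.0546 footprints per codon), MSS11 (0.0580) and SWI4 (0.0585).

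**Figure D2:**
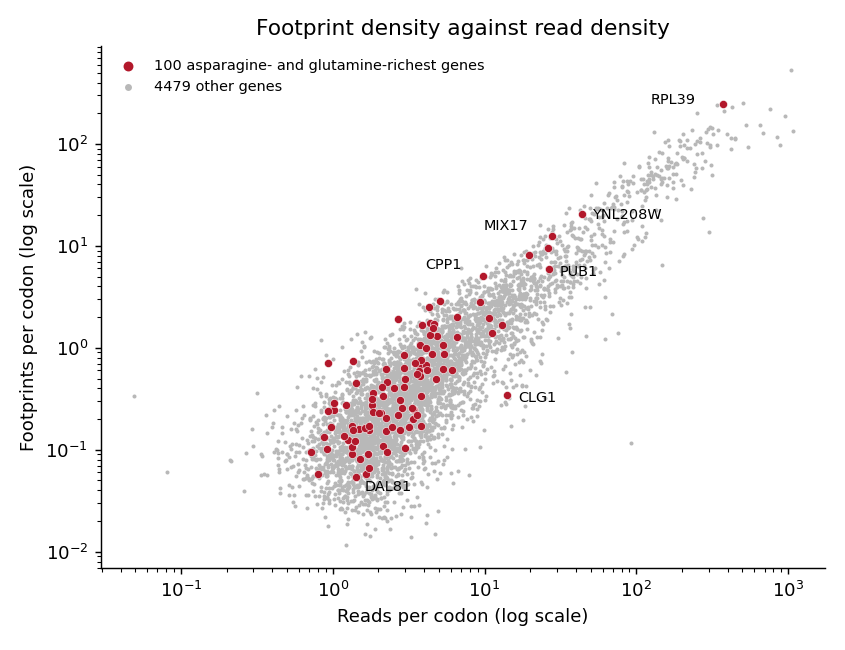
Reads per codon (x axis, log scale) and footprints per codon (y axis, log scale) of the 100 asparagine- and glutamine-richest genes (red) and the other 4479 genes (grey). The 100 genes lie among the others, around medians of 2.94 reads and 0.354 footprints per codon against 3.37 and 0.399. RPL39 lies far above at 244 footprints per codon. CLG1 has few footprints for its reads among the members, at 14.1 reads and 0.347 footprints per codon.

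To set ribosomes against mRNA, each gene's share of all footprints was divided by its share of all reads. A ratio of 1 is then the average read, and the median listed gene stood at 0.709. Each kind of library was sequenced once, so no difference below has a replicate to check it and none was tested. The 95% intervals given with ratios are exact conditional binomial intervals that cover counting error only. The median of the 100 genes was 0.853 (log2 -0.23, quartiles -0.98 and 0.48), against 0.706 (log2 -0.50, quartiles -1.37 and 0.29) in the others. Of the 100 genes, 25 lay more than 2-fold above the median gene, a share to be read against 19.4% of all listed genes. A further 14 lay more than 2-fold below it, against 21.9% of all. The difference of the medians was 0.27 on the log2 scale, and it was -0.026 if the abundance column is taken as already divided by length, as its header says. Among genes with at least 100 footprints and 100 reads it was 0.0331.

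Among members with at least 100 footprints and 100 reads, short frames had the highest ratios. STE18, the gamma subunit of the G protein of the mating response (111 codons), had 214 footprints and 300 reads, a ratio of 4.05 (3.39 to 4.85). RPL39 stood at 3.73 (3.65 to 3.81) and LSM4, with 473 footprints and 806 reads, at 3.34 (2.97 to 3.74). YDL012C followed at 3.27 (2.84 to 3.76), the decapping activator EDC1 at 3.12 (2.50 to 3.87) and CPP1, with 657 footprints and 1270 reads, at 2.94 (2.67 to 3.23). All 6 were at most 188 codons long.

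The lowest ratio among the same members was that of CLG1 (YGL215W, chromosome VII, 87981 to 89339), a cyclin-like partner of the kinase Pho85, with 157 footprints, 6373 reads and a ratio of 0.140 (0.119 to 0.164). The others were longer frames, of 684 to 1082 codons. The putative RNA-binding protein gene NRP1 had a ratio of 0.256 (0.212 to 0.306), the mRNA-binding Puf protein gene PUF3 0.297 (0.250 to 0.350), PSP1 0.338 (0.287 to 0.394), the regulator of ribosome synthesis SFP1 0.347 (0.292 to 0.409) and the Mediator tail subunit gene GAL11 0.384 (0.328 to 0.446).

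The ratios of the members fell with coding length, as did those of the other genes. Across the 100 genes, ratio and length had a Spearman rho of -0.814, and across the other 4479 it was -0.820. The 100 genes were also longer, with a median of 525 codons against 412. Each gene was therefore set against a smooth trend of log2 ratio on log2 length over all listed genes. On this scale 0 is a gene of typical ratio for its length.

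For their length, the 100 genes held more footprints per read than most genes. Their median lay 0.53 above the trend on the log2 scale (1.45-fold; quartiles 0.02 and 0.91), against 0.02 in the other genes (quartiles -0.44 and 0.41), a difference of medians of 0.51, or 1.42-fold. Of the 100 genes, 76 lay above the trend, against 52.0% of all listed genes. More than 2-fold above it lay 17 of the 100, against 4.63% of all, and 5 lay more than 2-fold below it, against 8.28% of all. Of the 17, only AZF1 (94 footprints) and CDC26 (88) had under 100 footprints. The ratios and the trend were also computed anew among genes with at least 100 footprints and 100 reads. Against that other trend, 6.85% of the 73 members lay more than 2-fold above, beside 2.79% of the other 2866 genes past that minimum.

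**Figure D3:**
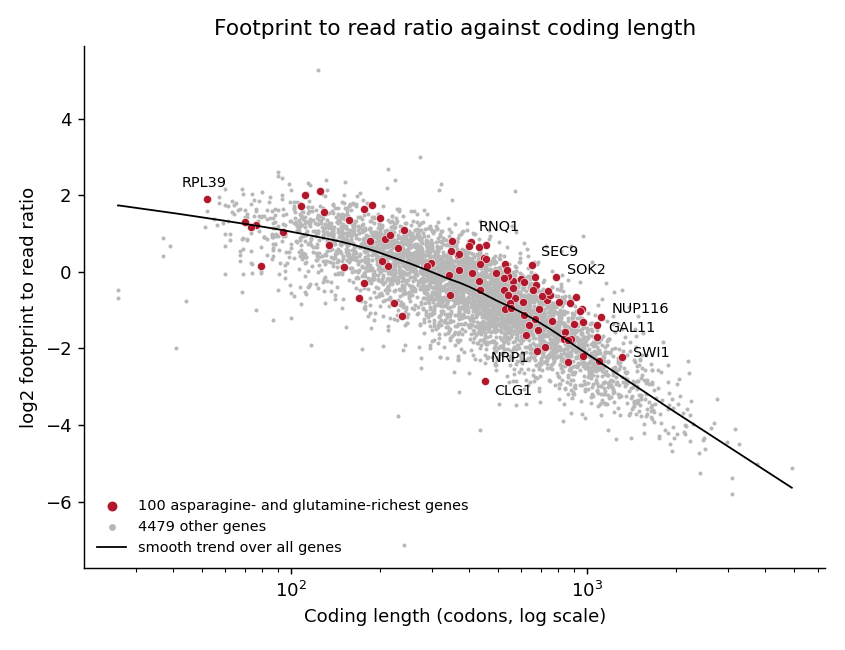
The log2 footprint to read ratio (y axis) of each gene against its coding length in codons (x axis, log scale), with the smooth trend over all 4579 genes as a black line. Most of the 100 asparagine- and glutamine-richest genes (red) lie above the line, 76 of them, while CLG1 lies 2.24 below it.

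The excess was seen in each class of coding length, and was smallest among short genes. Up to 300 codons, the median of the log2 values against the trend was 0.22 in 29 members and 0.06 in 1460 other genes. From there to 500 codons it was 0.73 in 19 members and -0.00042 in 1294 others, and 17 of the 19 lay above the trend, beside 50% of the others. To 1000 codons it was 0.55 in 47 members and 0.03 in 1339 others. Above 1000 codons, all 5 members (SWI1, NUP116, SWI4, GAL11 and PUF2) lay above the trend, with a median of 0.61, against -0.03 in 386 others. Of these 386, 183 lay above the trend. Members also lay higher in each of the 4 classes of reads per codon, with medians from low to high of 0.58, 0.10, 0.44 and 0.64, against -0.09, -0.17, 0.02 and 0.25 in the other genes. Members were few, 12, in the highest class.

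The members farthest above the trend, among those with at least 100 footprints and 100 reads, were the transcription factor SOK2 at 1.45 (316 footprints, 1987 reads), the plasma membrane t-SNARE SEC9 at 1.38 (236 and 1193), the epsin ENT1 at 1.32 (386 and 1338) and the nucleoporin NUP116 at 1.21 (288 and 3681). Their ratios for length were between 2.32 and 2.74 times the trend. Farthest below were CLG1 at -2.24, the cyclin-dependent kinase subunit CKS1 at -0.65 (191 and 997), NRP1 at -0.56 (123 and 2735) and SFP1 at -0.22 (149 and 2442). Of members with fewer footprints, VPR1 (25 footprints), SNF11 (52), FAR7 (28) and HTL1 (69) lay more than 2-fold below the trend, at -1.45, -1.34, -1.19 and -1.04. Together with CLG1 these make up the 5, and all but CLG1 were 79 to 236 codons long.

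The excess appeared at the top of the range of asparagine and glutamine shares and did not extend over all genes. In 1454 genes with shares over 8% and up to 10%, the median against the trend was -0.01. It was -0.05 from 10% to 12% (1039 genes), -0.01 to 14% (482), 0.16 to 16% (208), 0.21 to 18% (80) and 0.45 above 18% (104 genes, of which 100 are the members). At the low end, genes with up to 6% had a median of 0.14 (299 genes). Over all 4579 genes the share and the value against the trend had a Spearman rho of -0.01. Among the members it was 0.23. The genes ranked 1 to 50 had a median of 0.71, those ranked 51 to 100 one of 0.28 and those ranked 101 to 200 one of 0.16.

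**Figure D4:**
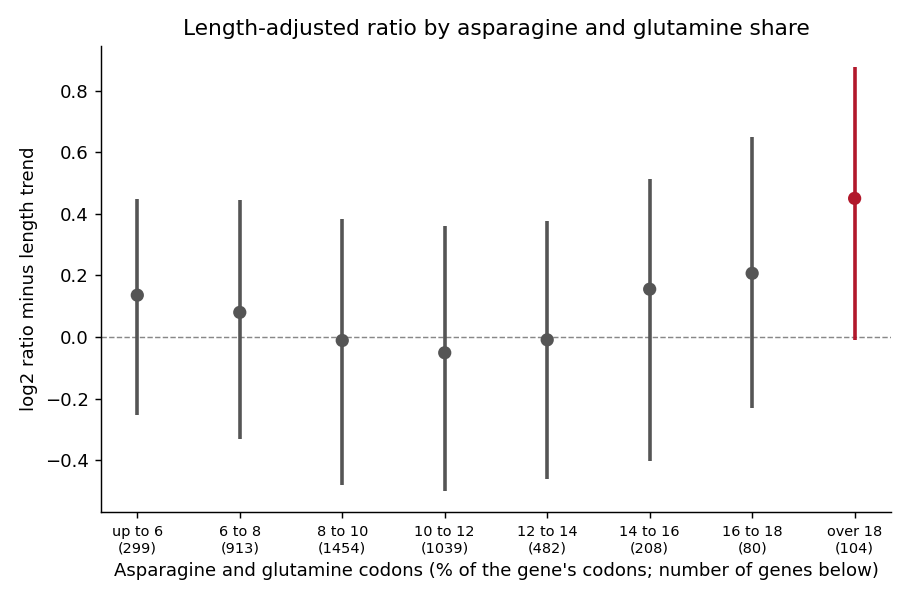
Median (point) and quartiles (line) of the log2 footprint to read ratio minus the length trend (y axis) for genes grouped by their share of asparagine and glutamine codons (x axis, %; number of genes in brackets). The medians stay between -0.05 and 0.21 up to a share of 18% and reach 0.45 in the 104 genes above it (red).

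Members in which glutamine prevailed lay higher than those in which asparagine prevailed. The 40 glutamine-led genes had a median of 0.69 against the trend, with 35 above it. The 60 asparagine-led genes had a median of 0.35, with 41 above it. Their quartiles overlapped, at 0.20 and 0.86 in the glutamine-led genes and -0.05 and 0.92 in the asparagine-led genes, and more than 2-fold above the trend lay 6 of the 40 and 11 of the 60. Of all listed genes, 52.0% lay above the trend and 4.63% more than 2-fold above it. The glutamine-led genes also had more reads per codon, with a median of 3.81 against 2.26.

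By function, 56 of the 100 genes were on at least 1 of 8 lists of yeast gene groups, beside 326 of all 4579 listed genes. The lists were chosen with earlier results of these data known, so the 56 is no finding about the members. The members of each list are set beside its remaining genes. The known and candidate prion genes that are members were RNQ1, LSM4, MOT3, SWI1, PUB1, CYC8, NUP100 and SFP1. Of these 8, 7 lay above the trend, with a median of 0.85, and RNQ1 (1.21), LSM4 (1.17) and NUP100 (1.07) lay more than 2-fold above it. The 4 listed prion genes that are not members, URE2, SUP35, STD1 and NEW1, had a median of 0.17. Of these, 2 lay above the trend and 0 more than 2-fold above it. RNQ1, which encodes a protein known mainly for its prion form, had 1147 footprints and 3763 reads, a ratio of 1.73 (1.62 to 1.85). SWI1, the SWI/SNF subunit behind another prion, had 87 footprints and 2289 reads, a ratio of 0.216 (0.172 to 0.268), and being 1315 codons long lay 0.54 above the trend.

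Among RNA-binding regulators, 12 members had a median of 0.89 against the trend and the other 25 listed genes one of 0.41. PIN4, a G2/M regulator with an RNA recognition motif, was the highest at 1.13 (582 footprints, 3630 reads), followed by the nuclear poly(A)-binding protein gene NAB2 at 1.04 (561 and 2785). PUB1 (0.95), SLF1 (0.93), NGR1 (0.93) and HRP1 (0.92) stood close together. NRP1 (-0.56) and the Puf protein gene MPT5 (-0.55, 89 footprints and 2588 reads) were the 2 below the trend. Of the other 25 listed genes, 17 lay above the trend. All 4 members from the mRNA decay list lay above it, with a median of 1.02, beside 19 of the 27 decay genes that are not members: LSM4, the translation repressor SCD6 (1.03, 709 and 2289), EDC1 (1.01, 131 and 239) and the deadenylase POP2 (0.74, 307 and 1506). Those 27 had a median of 0.27.

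Subunits of transcription coactivators and corepressors gave 11 members, 10 of them above the trend, with a median of 0.75. In 50 listed genes that are not members the median was 0.03, with 26 above the trend. The 3 Mediator tail subunits PGD1 (1.06, 114 footprints and 405 reads), GAL11 (0.93, 180 and 2667) and MED2 (0.29, 118 and 787) were among the members. TAF12, shared by TFIID and SAGA, stood at 0.76 (320 and 1987), SGF73 of SAGA at 0.76 (113 and 885) and the corepressor CYC8 at 0.75 (236 and 3333). In SWI/SNF, SWI1 (0.54) and SNF5 (0.55, 83 and 1219) lay above the trend and SNF11 far below it (-1.34, 52 and 471). SNF11 is 170 codons long, and its ratio was 0.628 (0.462 to 0.837).

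Sequence-specific transcription factors formed the largest listed group, with 17 members spread between -0.77 and 1.45. Their median was 0.11, with 12 above the trend, beside a median of -0.10 and 30 above it in 76 listed factors that are not members. SOK2 (1.45) and the glucose-linked regulator AZF1 (1.28, 94 footprints and 844 reads) lay more than 2-fold above, while IXR1 (0.87), ROX1 (0.73), the stress factor MSN2 (0.73), GLN3 (0.71), PHO2 (0.71) and MOT3 (0.71) lay lower. MCM1 (0.11, 216 and 1099), FKH2 (0.02, 95 and 1864), MIT1 (0.02), SWI4 (0.03) and HSF1 (-0.01, 75 and 1427) lay on the trend. RLM1 (-0.77, 65 and 1535), SKN7 (-0.51, 97 and 1717), SFP1 (-0.22) and DAL81 (-0.12) lay below it. The group's footprints were few, with a median of 116 and a range of 53 to 365.

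Of 6 endocytic members, 5 lay above the trend, with a median of 0.70. The epsins ENT1 (1.32) and ENT2 (0.83, 376 footprints and 2577 reads) and the clathrin-binding SCD5 (1.01, 150 and 1508) led, and the paired clathrin adaptors YAP1802 (0.28) and YAP1801 (-0.21) were the lowest. The other 29 listed endocytic genes, which are poorer in the 2 residues, had a median of 0.44, with 24 above the trend and 7 of them more than 2-fold above it. Of the FG nucleoporins, whose repeats line the nuclear pore channel, the members NUP116 (1.21), NUP100 (1.07) and NUP57 (0.79, 367 and 2243) had a median of 1.07. The 8 that are not members had a median of 0.92, all of them above the trend. The casein kinases YCK1 (0.29, 334 and 2874) and YCK2 (0.08, 330 and 3316) were the only members from the signalling list. YCK1 and YCK2, ENT1 and ENT2, and NUP100 and NUP116 are paralogous pairs, and how reads that match several genes were assigned is not given in the sources used here.

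The remaining 44 members were on none of these lists. They include the small membrane proteins CPP1 (0.67), YDL012C (0.71) and CPP2 (0.02), of which CPP2 overlaps the frame YDR209C. Among them are also DEF1 (0.96, 1022 footprints and 8265 reads), DDR48 (1.15, 267 and 972), YNL208W (0.92), SEC9 (1.38), the anaphase-promoting complex subunit CDC26 (1.20, 88 and 116), the DASH kinetochore subunits DAD4 (-0.06) and HSK3 (0.04), the t-SNARE SED5 (0.11), the metacaspase MCA1 (0.06, 727 and 5687) and the intermembrane space proteins MIX17 (0.62) and TIM10 (-0.05). The genes named in this group, apart from those at the ends of a ranking above, were picked with their values in view.

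Genes rich in some other residues lay above the trend as well. With each of the 18 other residues ranked alone, the 100 richest genes had a median above the trend for 11 and below it for 7. The 100 genes richest in serine had a median of 0.48, with 71 above the trend, and they share 8 genes with the members, 8.0% of each list. Without those 8 their median was 0.45. The 100 richest in proline had a median of 0.26 (11 shared genes) and the 100 richest in aspartate and glutamate one of 0.28 (0 shared genes), beside 0.53 for the asparagine- and glutamine-richest. With each residue ranked alone, the 100 genes richest in glutamine had a median of 0.43 and the 100 richest in asparagine one of 0.26. Lysine (0.45), glutamate (0.42) and alanine (0.40) gave values in the same range. The 7 below the trend were isoleucine (-0.20), leucine (-0.15), tyrosine (-0.14), cysteine (-0.10), phenylalanine (-0.07), methionine (-0.04) and tryptophan (-0.03).

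The footprint columns also give where ribosomes stood, codon by codon. On the 10871 asparagine and glutamine codons of the 100 genes there were 6675 footprints, 0.700 times the 9541 that the gene means would give (95% Poisson interval 0.683 to 0.717, counting error only). In the other genes the same value was 0.714. Weighted by occurrence, so that each codon counts equally, the occupancy was 0.701 in the 100 genes and 0.707 in the others. Weighted by occurrence, the low occupancy of these codons was thus close in the 100 genes and in the others. The summed value rests in part on 1 gene. RPL39 gave 1403 of the 6675 footprints and 2440 of the 9541 expected, and stood at 0.575. It therefore lowers the summed value of the members, which was not computed without it, so the order of 0.700 and 0.714 is not a firm one.

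Gene by gene, 91 of the 100 members had fewer footprints on asparagine and glutamine codons than their gene mean would give, against 82.5% of all listed genes. For 53 members the exact binomial interval of the share of footprints lay wholly below the share of codons, against 39.9% of all. For 3 it lay wholly above, against 3.12% of all. More than 2-fold fewer footprints than the gene mean would give were found in 20 members, against 33.2% of all. The precision of each value rises with the gene's footprints and with its share of these codons, which the rule makes high in members. Footprints over those the gene mean would give had a median of 0.681 in members (quartiles 0.543 and 0.809). In the other genes it was 0.649 (0.407 and 0.897). By this median the members were not lower, and their values spread less.

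In RNQ1, 31.3% of codons encode asparagine or glutamine and they held 23.6% of its 1147 footprints (21.2 to 26.2). In DEF1 they held 23.0% of 1022 footprints (20.4 to 25.7) on 29.4% of codons, and in PUB1 18.3% of 2683 (16.8 to 19.8) on 24.7%. LSM4 had 19.0% of footprints (15.6 to 22.9) on 29.8% of codons, IXR1 17.8% (13.8 to 22.3) on 30.1%, and AZF1 6.38% (2.38 to 13.4) on 21.9%. These genes put fewer footprints on the 2 residues than their share of codons, by differing amounts.

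The 2 genes with the highest shares did not. CPP1 had 36.4% of footprints (32.7 to 40.2) on 34.1% of codons, and MCM1 32.9% (26.6 to 39.6) on 32.4%. In both, the codon with the most footprints was one of glutamine. CAG held 18.3% of the footprints of CPP1 over 19 of its 129 codons, and CAA 16.2% of those of MCM1 over 48 of 287. A glutamine codon also held the most footprints in RNQ1, DEF1, PUB1 and IXR1, so this trait does not set CPP1 and MCM1 apart. The 3 genes with intervals above their codon share were STE18 (39.7%, 33.1 to 46.6, on 23.4% of codons), SGF73 (29.2%, 21.0 to 38.5, on 20.5%) and MCA1 (22.7%, 19.7 to 25.9, on 18.5%). In SGF73, CAG held 21.2% of the footprints over 30 occurrences.

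**Figure D5:**
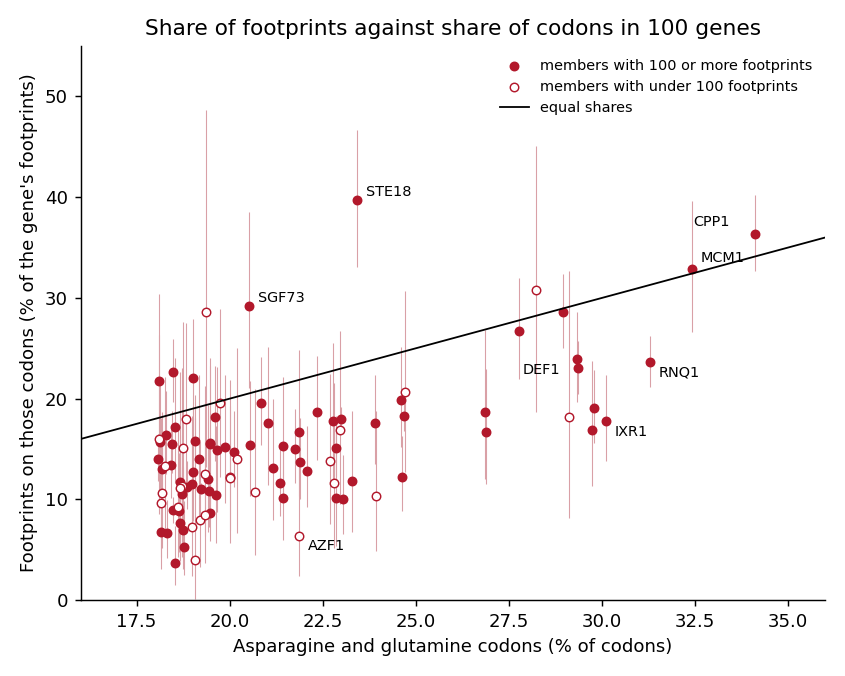
Share of a gene's footprints that lie on asparagine and glutamine codons (y axis, %) against the share of its codons that are of these residues (x axis, %), for the 100 members, with exact binomial 95% intervals. Filled points have 100 or more footprints, and 91 of the 100 points lie below the line of equal shares, with STE18 at 39.7% and SGF73 at 29.2% above it.

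The 4 codons differed from each other. Weighted by occurrence, AAC stood at 0.572 in the members and 0.691 in the other genes, AAT at 0.684 and 0.700, CAA at 0.711 and 0.604, and CAG at 0.907 and 0.997. Asparagine as a whole stood at 0.637 in the members and 0.696 in the others, and glutamine at 0.778 and 0.725. These directions depend on the weighting. With footprints summed over genes and set against the gene means, AAC was 0.726 in the members (0.697 to 0.757) and 0.750 in the others, CAA 0.579 (0.555 to 0.605) and 0.654, and CAG 1.01 (0.951 to 1.07) and 0.902, so that CAA and CAG took the opposite order between members and others. AAC and AAT, the second at 0.690 (0.650 to 0.733) and 0.706, did not. The summed counts include those of RPL39. By the median over genes with at least 10 occurrences, AAC and AAT stood higher in members too, at 0.546 against 0.502 and 0.634 against 0.510. Genes with no footprint on AAC, which lower such medians, were 13 of 81 members and 745 of 2229 others. CAA stood at 0.671 against 0.405 and CAG at 0.805 against 0.405. CAG was the most occupied of the 4 codons in members by each of these measures.

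Since the 2 residues held few footprints, the other sense codons of the members held 1.07 times the gene mean, against 1.02 in the other genes. Leucine codons stood at 1.42 in the members and 1.15 in the others, and 1.33 (1.29 to 1.38) and 1.08 for summed counts. Leucine is scarcer in members, with 3755 codons. The leucine codon CTG stood at 3.54 and 2.64, and at 3.24 in the members without SWI4, the gene that adds most to it. Proline codons stood at 1.91 in the members and 1.97 in the others, with the rare codon CCG at 5.14 and 4.98. In some genes such a codon held the most footprints of any: CCG held 18.1% of the footprints of AZF1 over 11 occurrences and 12.3% of those of SOK2 over 13. In RPL39, the lysine codon AAG held 32.1% of all footprints over 7 occurrences. Because RPL39 carries 12686 of the members' 44151 footprints, values summed over the members' codons rest heavily on it, whereas the occupancy of asparagine and glutamine codons weighted by occurrence was 0.701 with and without it.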

How the data were processed

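The samples are 1 footprint library and 1 total RNA library of a single strain, and the values used are a gene by codon table of 4579 genes. The deposited footprint columns hold raw counts per codon, summed over the codon's occurrences in a gene, per the file headers. The sources used here do not give the ribosomal site assigned to the codon. The 64 columns headed with the word total hold codon occurrences, not reads: 4575 genes have 1 stop codon in them, and 3 times their sum equals the RefSeq length of 4346 genes. The deposited column headed FPKM behaves as CPM, since 100% of its values are whole multiples, within 0.001 reads, of a step of 0.0459 CPM, which corresponds to 21771294 reads of 1 library. Its values were turned into reads by that step. Per the submitters' processing notes, HTSeq, HISAT2, Bowtie2 and cutadapt and the build sacCer3 were used. Settings, strand use and the handling of multiply mapped reads are not given there. Symbols and coordinates came from a RefSeq table of assembly R64 (sacCer3), which matched 4578 identifiers and all 100 members.

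All listed genes were used with no further count minimum and no pseudocount. The length trend is a LOWESS curve (30% of genes; statsmodels 0.14.6) of log2 ratio on log2 codons. Occupancy is footprints per occurrence over the gene's mean footprints per codon. Intervals are exact and cover counting error only, since the libraries were amplified and reads were not tied to single molecules. With 1 library per group no test across samples was possible, and no p-value was computed. The members and lists were chosen with earlier results of these data known. The rule for named genes took the 8 highest shares, the 6 with most footprints, the 6 highest and 6 lowest ratios and the 4 highest and 4 lowest values against the trend among the 73 members with at least 100 footprints and 100 reads, members on the 8 lists, and the 3 genes on each side of rank 100. Other genes named were chosen after seeing their values. Functions were tested on simulated data. No protein or coding sequences were used here.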

Additional observations from a re-analysis of the deposited data

How the results depend on the processing

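No paired analysis was possible because each kind of library exists once, so none could be left out. The difference of medians between members and other genes in the length-adjusted log2 ratio (0.51) lay within 0.261 to 0.689, the order-statistic interval of the members' median less the other genes' median, under 9 of 11 alternatives, between 0.265 for the 200 highest shares and 0.684 for the 50 highest. That interval treats the members as independent draws, though they are a fixed set from 1 pair of libraries. The alternatives reuse the same counts, so lying within it is only a yardstick and no measure of replication. The difference was 0.696 among genes of over 300 codons. It was 0.532 with asparagine and glutamine codons left out of footprints and, by their share, of reads, with the full length kept. The occupancy of those codons was 0.701 in members and 0.707 in others, so that setting could change the difference little and is no check on it. The difference was 0.0763, with 2.0% of members more than 2-fold above the trend, when those codons were left out of footprints and length while reads were kept whole. That setting takes footprints away without taking their reads. It also sets each gene against the trend at a shortened length, and members are shortened most. How much each of these changes adds was not tested. In settings that left genes out, the trend was fitted anew to the genes kept, so single genes moved against it. The 17.0% of members more than 2-fold above the trend became 6.85% with at least 100 footprints and 100 reads. It became 6.67% (2 of 30 members) with at least 2000 reads, beside 2.79% and 2.53% of the other genes in the 2 settings. The cause was not tested. Median footprints per codon was 0.603 in members and 0.89 in others under the minimum of 100 counts, which removes genes with few footprints, and 0.51 and 0.397 for the 50 highest shares. Without the length trend, the difference of medians was 0.273, and it lay between -0.026 and 0.436 over 8 alternatives. The occupancy of asparagine and glutamine codons in members lay between 0.695 and 0.713 over 7. Settings with 2000 reads, over 300 codons, codons left out, a plane on length and reads, or RPL39 left out were chosen after seeing the data. Depth limits single genes: 27 members had under 100 footprints.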
